A study of Mus musculus with 26 samples.

Results

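The genes described here are 40 genes of cell death, cell survival and the response to axon injury, chosen by name. The table lists 38 of them among its 14580 genes, and Casp8 and Nmnat3 are not in it. Of the 38, all were listed at postnatal day 5 (P5) and 36 in each of the adult strains, where genes under the authors' minimum level were left out, namely Bid and Bbc3 in adult Opn4-GFP retinas and Bbc3 and Hspb1 in adult Opn4-Cre/GFP retinas. A total of 35 genes could be followed in all 3 sets of libraries.

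The study sorted retinal ganglion cells of melanopsin-reporter mice into intrinsically photosensitive ganglion cells (ipRGCs, GFP-positive) and conventional ganglion cells (cRGCs, GFP-negative), after dissociation of the retina and anti-Thy1 enrichment of ganglion cells. Opn4-GFP+/- mice, labelled BL6 although the study's text describes its strains as mixed, carry a BAC transgene that labels the M1 to M3 types of ipRGC, and gave 3 ipRGC and 3 cRGC libraries at P5 (postnatal days 4 to 6) and 6 and 6 in adults (postnatal days 27 to 33). Opn4-Cre+/-; Z/EG+/- mice on a mixed background (Opn4-Cre/GFP) label the M1 to M6 types through Cre driven from the melanopsin locus, and gave 4 ipRGC and 4 cRGC libraries in adults of the same age range. Each library came from pooled mice, no sample label gives an injury or a drug, each reporter leaves some ipRGCs unlabelled, and unlabelled ipRGCs fall in the cRGC pool. Values are CPM, the reads of a gene relative to the reads of its library, scaled by the authors within each set, from 3927386 to 44871619 reads per library.

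After damage to its axon in the optic nerve, a ganglion cell passes a retrograde stress signal through the kinase DLK (Map3k12) and the Jun N-terminal kinases to the nucleus, where transcription factors including p53, Jun, ATF4 and CHOP switch on pro-apoptotic BH3-only genes. BH3-only proteins release the pore formers BAX and BAK from the pro-survival members of the BCL2 family, cytochrome c leaves the mitochondria, and the APAF1 apoptosome activates caspases. A separate program in the axon is run by SARM1, an NAD-consuming enzyme held in check by NMNAT2, and survival and regrowth are promoted by AKT and mTOR signalling and limited by SOCS3, an inhibitor of cytokine signalling. Melanopsin-expressing ganglion cells are known to survive optic nerve injury better than most other ganglion cells. That sets the question of whether, without an experimental nerve injury, their expression of these genes differs from that of cRGCs. The paper warns that dissociation and sorting may themselves alter expression through stress. All libraries went through both, and the part of these steps in the values was not tested.

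None of the 38 listed genes passed the threshold for a difference between ipRGCs and cRGCs at P5, and none of the 36 did in Opn4-GFP or in Opn4-Cre/GFP adults. The threshold was an adjusted p below 0.05 (limma on log2(CPM + 1), adjusted over all listed genes) with a change of over 2-fold, that is a log2 fold change beyond 1. It was passed by 1.93% of all genes upward and 2.27% downward at P5, by 1.76% and 3.39% in Opn4-GFP adults, and by 1.97% and 3.47% in Opn4-Cre/GFP adults. Dropping the fold limit also gave 0 genes of the 40 in each. The smallest adjusted p among them was 0.367 at P5, 0.0556 in Opn4-GFP adults (Nmnat2) and 0.19 in Opn4-Cre/GFP adults (Socs3). Before adjustment, 1, 5 and 4 of them had p below 0.05, against 13.3%, 17.0% and 17.3% of all genes in the same comparisons. In edgeR's quasi-likelihood test on the recovered reads 0 of them passed in each comparison, with 2, 3 and 1 at an unadjusted p below 0.05, and in DESeq2 0, 1 (Socs3) and 1 (Sarm1) passed, with 2, 4 and 4. Of all genes, 3.88%, 2.62% and 3.22% passed in edgeR and 5.29%, 7.12% and 8.59% in DESeq2.

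The size of the differences was small at P5 and wide in its error in adults. At P5, 32 of the 38 genes had a log2 fold change between -0.5 and 0.5, the median absolute value was 0.28 against 0.28 over all genes, and 26 were negative (lower in ipRGCs) and 12 positive. The 95% interval lay within 2-fold in either direction for 22 of the 38 (57.9%, against 41.2% of all genes). In Opn4-GFP and Opn4-Cre/GFP adults 0 of the 36 had an interval that narrow, against 0.751% and 1.43% of all genes, and the median standard error of the genes was 0.31 at P5 and 0.84 and 0.70 in adults, so the adult intervals allowed a change of over 2-fold for every one of them. The median log2 fold change of the genes was -0.12 at P5, 0.04 in Opn4-GFP adults and 0.07 in Opn4-Cre/GFP adults, beside 0.00, 0.06 and 0.03 over all genes, and the adult comparisons split evenly in sign (19 positive and 17 negative, 18 and 18).

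**Figure D1:**
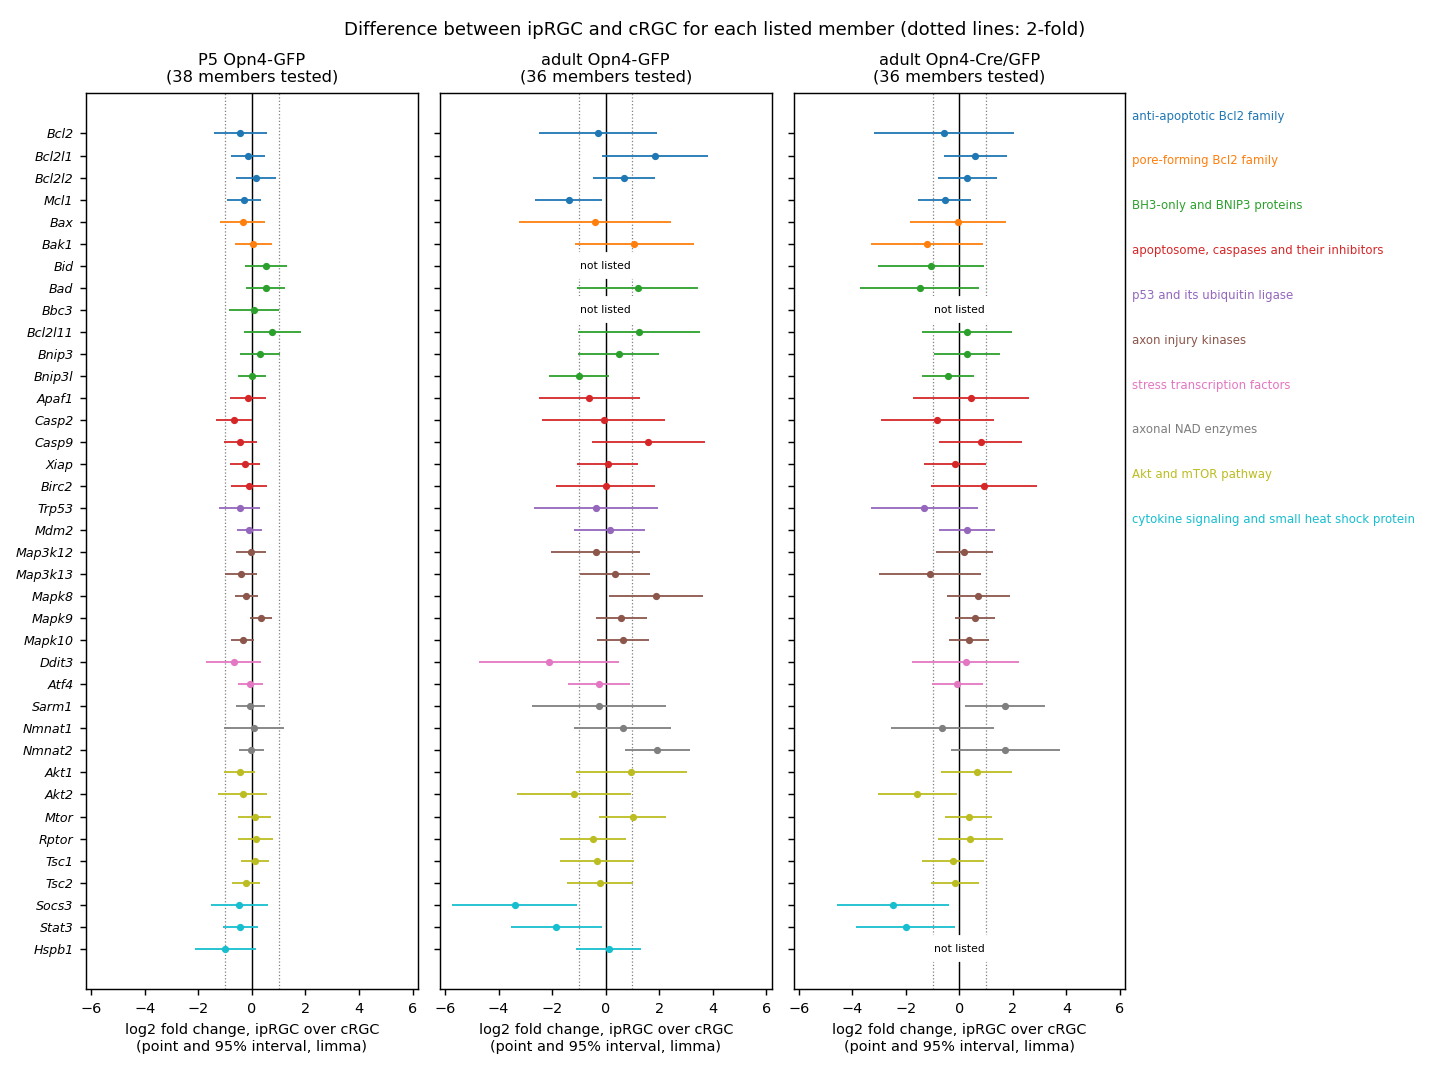
Difference between ipRGC and cRGC libraries for each listed gene in the 3 sets, as log2 fold change on the log2(CPM + 1) scale (x axis; point and 95% interval from limma), coloured by role, with dotted lines at 2-fold. The P5 intervals are narrow and 22 of 38 lie between the dotted lines, whereas every adult interval extends past at least 1 of them.

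The replicates differed less at P5 than in adults. The coefficient of variation of a gene across the libraries of a group had a median over the listed genes of 28.4% for ipRGCs against 26.0% for cRGCs at P5, 86.9% against 99.5% in Opn4-GFP adults, and 48.3% against 63.5% in Opn4-Cre/GFP adults, beside the 27.4%, 29.5%, 85.6%, 97.9%, 54.6% and 72.4% of all genes in the same groups. In adult Opn4-GFP libraries 5 of the 36 genes in ipRGCs and 8 in cRGCs were at 0 in at least 1 library, and 5 and 0 in Opn4-Cre/GFP adults, whereas at P5 every gene had reads in every library.

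The pools also differed in markers of other cells, most in adults. Müller glia markers summed to 470 to 756 CPM in the P5 libraries of both types, to 917 to 1638 CPM in adult Opn4-GFP ipRGCs and to 14588 to 26746 CPM in the matching cRGCs, and in Opn4-Cre/GFP adults to 968 to 1791 and 12048 to 50639.7 CPM. Vascular and pericyte markers summed to 0.642 to 46.5 CPM in adult Opn4-GFP ipRGCs against 693 to 1636 CPM in cRGCs, and to 12.1 to 34.6 against 674 to 3370.4 CPM in Opn4-Cre/GFP adults. Amacrine markers summed to 1578 to 2978 against 3541 to 9434 CPM, and to 1394 to 2250.0 against 2346 to 5414 CPM. Pan-RGC markers went the other way, from 4861 to 10663 CPM in adult Opn4-GFP ipRGCs against 763 to 2627 in cRGCs and from 5997 to 8543 against 1107 to 3333 in Opn4-Cre/GFP adults, while at P5 they summed to 8232 to 11394 and 10036 to 11562. Rod and bipolar marker sums overlapped between the pools in Opn4-GFP adults, at 11 to 103.5 against 30.4 to 363 CPM and 254 to 719 against 268 to 1042 CPM. At P5 the pools did not overlap for Müller glia markers (528 to 756 CPM in ipRGCs, 470 to 527 in cRGCs). Nor did they for amacrine (821 to 1067 CPM in ipRGCs, 1182 to 1387 in cRGCs), rod (7.5 to 15.3 and 1.26 to 4.43) and astrocyte markers (1.78 to 3.89 and 7.43 to 68.7). Vascular markers stood at 289 CPM in P5 cRGC replicate 3 and at 7.09 to 18.1 CPM in the other P5 libraries, and without that library 0 of the 38 genes passed at P5 as well. No listed marker of any list was at 0 in all libraries of a group. The ipRGC markers stood at 1967 to 13960.0 CPM in every ipRGC library and at 9.05 to 501 CPM in every cRGC library. In such bulk samples fewer cells of a type and less RNA per cell cannot be told apart, and the part of these other cells in each difference given here was not tested.

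**Figure D2:**
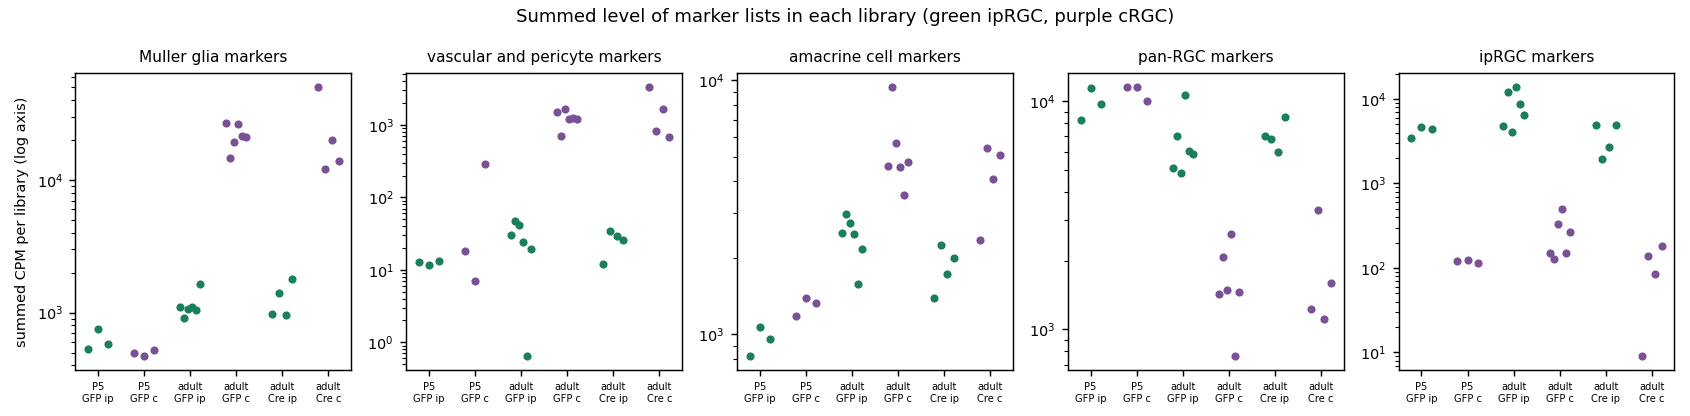
Summed CPM of 5 marker lists in each library (y axis, log scale; 1 point per library, ipRGC green and cRGC purple) in the 6 groups. Adult cRGC libraries lie above adult ipRGC libraries for Müller glia and vascular markers and below them for pan-RGC markers, while the P5 pools overlap or lie close for Müller glia and pan-RGC markers and 1 P5 cRGC library is high for vascular markers.

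Among the pro-survival members of the BCL2 family (Bcl2, Bcl2l1, which encodes BCL-XL, Bcl2l2 and Mcl1), 0 of 4 passed in each comparison. Mcl1 (ENSMUSG00000038612, chr3:95462643-95467099 on mm9), a short-lived pro-survival protein that holds BAK and BH3-only proteins, had the smallest unadjusted p of the 4. At P5, Mcl1 stood at 66.0, 60.5 and 116 CPM in the ipRGC libraries and 78.5, 77.7 and 144 CPM in the cRGC libraries. In Opn4-GFP adults its level ran from 15.8 to 62.6 CPM (median 48.5) in ipRGCs and from 37.9 to 272 CPM (median 137) in cRGCs. In Opn4-Cre/GFP adults it was 46.5, 42.0, 107 and 72.0 CPM in ipRGCs and 99.0, 92.9, 122 and 64.0 in cRGCs. The groups overlapped in all 3 sets, although in Opn4-GFP adults 4 of the 6 cRGC libraries lay above every ipRGC library. The log2 fold change of Mcl1 was -0.31 (SE 0.30, 95% interval -0.93 to 0.32, adjusted p = 0.815) at P5. In adults, Mcl1 was at -1.38 (SE 0.60, 95% interval -2.63 to -0.13, adjusted p = 0.228) with the Opn4-GFP reporter and at -0.55 (SE 0.47, 95% interval -1.55 to 0.44, adjusted p = 0.615) with Opn4-Cre/GFP. Bcl2l1, the main pro-survival family member of adult neurons, had adult values of 1.84 (adjusted p = 0.338, SE 0.95) and 0.60 (adjusted p = 0.654, SE 0.56) and -0.15 at P5. Bcl2 was at -0.43, -0.30 and -0.59 and Bcl2l2 at 0.14, 0.69 and 0.30 at P5, in Opn4-GFP adults and in Opn4-Cre/GFP adults, the order in which 3 log2 fold changes of a gene are given from here on.

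The pore formers Bax and Bak1, which permeabilise the outer mitochondrial membrane, did not pass either (0 of 2 in each set). Bak1 (ENSMUSG00000057789, chr17:27156755-27165954) stood at 23.5, 28.3 and 28.9 CPM in P5 ipRGCs and 37.6, 27.0 and 17.0 in P5 cRGCs. In Opn4-GFP adults it ran from 1.0 to 91.0 CPM (median 6.26) in ipRGCs and from 0 to 17.6 CPM (median 5.29) in cRGCs, and in Opn4-Cre/GFP adults it read 4.95, 23.1, 8.08 and 1.74 CPM in ipRGCs and 7.95, 17.5, 4.99 and 100.6 in cRGCs. Single libraries stood highest in adults, 1 of ipRGCs in the first strain and 1 of cRGCs in the second, and the groups overlapped throughout. Its log2 fold change was 0.05 (SE 0.32, 95% interval -0.63 to 0.73, adjusted p = 0.984) at P5. In adults, Bak1 was at 1.08 (SE 1.07, 95% interval -1.14 to 3.29, adjusted p = 0.698) with the Opn4-GFP reporter and at -1.20 (SE 0.98, 95% interval -3.29 to 0.89, adjusted p = 0.597) with Opn4-Cre/GFP. Exons of Bak1 overlap those of Ggnbp1 over 14.8% of their length, and no source states that strand was used in counting, so its level is uncertain to that extent. Bax, the pore former that ganglion cells need to die after axotomy, was at -0.35, -0.40 and -0.04, and ran from 0 to 795 CPM (median 2.76) in adult Opn4-GFP cRGCs.

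Of the BH3-only and BNIP3 genes, which encode the sensors that trigger the pore formers, 0 of 6 passed at P5, 0 of 4 in Opn4-GFP adults and 0 of 5 in Opn4-Cre/GFP adults. Bnip3l (ENSMUSG00000022051, chr14:67604076-67627714), a mitochondrial protein that also serves as a receptor for mitophagy, stood at 95.5, 64.4 and 97.3 CPM in P5 ipRGCs and 98.2, 69.5 and 88.4 in P5 cRGCs. In Opn4-GFP adults its level ran from 29.9 to 125 CPM (median 67.9) in ipRGCs and from 71.6 to 269 CPM (median 116) in cRGCs. With Opn4-Cre/GFP in adults it was 94.3, 93.0, 152 and 138 CPM in ipRGCs against 102, 121, 140.2 and 348 in cRGCs. Levels were nearly equal at P5, and the adult groups overlapped with the highest libraries among the cRGCs. Its log2 fold change was -0.00 (SE 0.24, 95% interval -0.52 to 0.51, adjusted p = 1) at P5. In adults, Bnip3l was at -1.0 (SE 0.54, 95% interval -2.11 to 0.11, adjusted p = 0.36) with the Opn4-GFP reporter and at -0.43 (SE 0.45, 95% interval -1.39 to 0.54, adjusted p = 0.703) with Opn4-Cre/GFP. Bad, held inactive by AKT phosphorylation, and Bid, which is cut by caspase-8, were higher in every P5 ipRGC library than in every P5 cRGC library, with log2 fold changes of 0.51 (adjusted p = 0.66, SE 0.35) and 0.53 (adjusted p = 0.67, SE 0.36). Exons of Bad and Bid overlap those of Gpr137 and Bcl2l13 over 25.8% and 17.7% of their length. Such separation upward was also seen for 8.85% of all genes at P5, and in Opn4-Cre/GFP adults both had negative values (-1.48 and -1.06). Bcl2l11, which encodes BIM, was at 0.76, 1.25 and 0.28, Bnip3 at 0.30, 0.48 and 0.29, and Bbc3, which encodes the p53 target PUMA, at 0.07 at P5.

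Among the apoptosome, the caspases and their inhibitors, 0 of the 5 listed genes passed. Casp2 (ENSMUSG00000029863, chr6:42214984-42232507), an initiator caspase linked to death after neurotrophin loss and DNA damage, stood at 19.3, 18.1 and 12.6 CPM in P5 ipRGCs and 21.4, 28.8 and 31.5 in P5 cRGCs. Every P5 ipRGC library lay below every P5 cRGC library, as it did for 8.47% of all genes. In Opn4-GFP adults it ran from 0.387 to 73.8 CPM (median 4.58) in ipRGCs and from 0 to 34.9 CPM (median 10.4) in cRGCs, and in Opn4-Cre/GFP adults it was 6.32, 14.2, 25.7 and 0.307 CPM in ipRGCs against 9.29, 36.4, 17.5 and 4.44 in cRGCs, with overlap in both. The log2 fold change was -0.68 (SE 0.32, 95% interval -1.35 to -0.01, adjusted p = 0.367) at P5, the only interval of the 38 that left out 0. In adults, Casp2 was at -0.08 (SE 1.11, 95% interval -2.38 to 2.22, adjusted p = 0.982) with the Opn4-GFP reporter and at -0.83 (SE 0.99, 95% interval -2.94 to 1.28, adjusted p = 0.745) with Opn4-Cre/GFP. Casp9, the caspase that the apoptosome activates, was at -0.43, 1.59 and 0.79, and Apaf1, the scaffold of the apoptosome, at -0.15, -0.61 and 0.43. The caspase inhibitor Xiap was close to 0 at -0.26, 0.07 and -0.16, and the ubiquitin ligase Birc2 was at -0.10, 0.00 and 0.92.

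Trp53 (ENSMUSG00000059552, chr11:69393861-69405375), which encodes p53, and Mdm2, which encodes its ubiquitin ligase, did not pass in any set. Trp53 stood at 17.1, 9.40 and 12.4 CPM in P5 ipRGCs and 22.7, 19.2 and 12.8 in P5 cRGCs. It ran from 0.428 to 40.5 CPM (median 11) and from 0.801 to 85.0 CPM (median 16.5) in adult Opn4-GFP ipRGCs and cRGCs, and in Opn4-Cre/GFP adults was 20.7, 11.6, 14.1 and 0.409 CPM in ipRGCs against 39.7, 10.5, 9.98 and 41.9 in cRGCs. Both pools held libraries under 1 CPM of Trp53 in Opn4-GFP adults, and no set was free of overlap. Its log2 fold change was -0.47 (SE 0.36, 95% interval -1.23 to 0.30, adjusted p = 0.729) at P5. In adults, Trp53 was at -0.36 (SE 1.12, 95% interval -2.67 to 1.95, adjusted p = 0.923) with the Opn4-GFP reporter and at -1.31 (SE 0.94, 95% interval -3.31 to 0.68, adjusted p = 0.527) with Opn4-Cre/GFP. Mdm2 was at -0.10, 0.16 and 0.29.

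The kinases of the axon injury signal comprise Map3k12 (DLK), Map3k13 (LZK) and the Jun N-terminal kinases Mapk8, Mapk9 and Mapk10, of which 0 of 5 passed in each set. Mapk8 (ENSMUSG00000021936, chr14:34191084-34260344), which encodes JNK1, stood at 123, 116 and 142 CPM in P5 ipRGCs and 159, 134 and 148 in P5 cRGCs. In Opn4-GFP adults it ran from 49.0 to 135 CPM (median 71.5) in ipRGCs and from 0.229 to 133 CPM (median 27.3) in cRGCs. In Opn4-Cre/GFP adults it was 89.1, 131, 189 and 165 CPM in ipRGCs against 24.5, 158, 124 and 104 in cRGCs. In Opn4-GFP adults 5 of the 6 cRGC libraries lay below every ipRGC library and 1 lay among the highest values. Its log2 fold change was -0.21 (SE 0.21, 95% interval -0.65 to 0.23, adjusted p = 0.816) at P5. In adults, Mapk8 was at 1.89 (SE 0.85, 95% interval 0.14 to 3.64, adjusted p = 0.244) with the Opn4-GFP reporter and at 0.70 (SE 0.55, 95% interval -0.47 to 1.88, adjusted p = 0.575) with Opn4-Cre/GFP. Mapk9, which encodes JNK2, stood at 375, 343 and 357 CPM in P5 ipRGCs and 278, 309.9 and 261 in P5 cRGCs. In Opn4-Cre/GFP adults it was 219.8, 248, 293 and 266 CPM in ipRGCs against 134, 200.2, 153 and 208 in cRGCs. Its ipRGC libraries were all higher in both of those sets, as were 8.85% and 5.49% of all genes, but by log2 fold changes of 0.34 (adjusted p = 0.53, SE 0.19) and 0.58 (adjusted p = 0.454, SE 0.35). In Opn4-GFP adults the ranges of Mapk9 overlapped, with a log2 fold change of 0.58 (adjusted p = 0.595, SE 0.46). Mapk10, the neuronal JNK3, was at -0.35, 0.64 and 0.36, Map3k12 at -0.05, -0.37 and 0.18, and Map3k13 at -0.39, 0.35 and -1.10. Exons of Map3k12 overlap those of Pcbp2 over 17.5% of their length.

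Both stress transcription factors, Ddit3 (CHOP) and Atf4, act in the integrated stress response, and 0 of 2 passed. Ddit3 (ENSMUSG00000025408, chr10:126727830-126733344) stood at 3.35, 9.69 and 1.99 CPM in P5 ipRGCs and 6.91, 7.78 and 7.37 in P5 cRGCs. It ran from 0 to 46.2 CPM (median 2.15) in adult Opn4-GFP ipRGCs and from 0.0729 to 142 CPM (median 22.7) in cRGCs, and in Opn4-Cre/GFP adults was 9.12, 17.2, 25.7 and 3.17 CPM in ipRGCs against 34.1, 4.61, 18.9 and 1.78 in cRGCs. Libraries at 0 stood beside a library at 46.2 CPM within adult Opn4-GFP ipRGCs, and the groups overlapped in every set. Its log2 fold change was -0.69 (SE 0.48, 95% interval -1.72 to 0.34, adjusted p = 0.682) at P5. In adults, Ddit3 was at -2.12 (SE 1.26, 95% interval -4.73 to 0.49, adjusted p = 0.429) with the Opn4-GFP reporter and at 0.23 (SE 0.95, 95% interval -1.78 to 2.24, adjusted p = 0.939) with Opn4-Cre/GFP. Atf4, the most abundant of the 38 genes per kb of exon at P5, differed little, with log2 fold changes of -0.07, -0.24 and -0.07.

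The enzymes of axonal NAD include the gene with the smallest adjusted p of the 40 in any comparison, yet 0 of the 3 listed genes passed. Nmnat2 (ENSMUSG00000042751, chr1:154802231-154966390), the short-lived NAD-synthesising enzyme that keeps axons intact, stood at 298, 284 and 234 CPM in P5 ipRGCs and 340.0, 293 and 209.8 in P5 cRGCs. In Opn4-GFP adults it ran from 159 to 809 CPM (median 266) in ipRGCs and from 19.2 to 229 CPM (median 94.7) in cRGCs. With Opn4-Cre/GFP in adults it was 303, 229.8, 286 and 64.7 CPM in ipRGCs against 4.40, 306, 39.7 and 168 in cRGCs. Only the highest adult Opn4-GFP cRGC library reached into the ipRGC range, and the ipRGC library was the higher in 6 of 6 equally numbered pairs, against 2 of 4 in Opn4-Cre/GFP adults. The log2 fold change was -0.03 (SE 0.22, 95% interval -0.50 to 0.45, adjusted p = 0.988) at P5. In adults, Nmnat2 was at 1.94 (SE 0.59, 95% interval 0.72 to 3.15, adjusted p = 0.0556) with the Opn4-GFP reporter and at 1.72 (SE 0.95, 95% interval -0.31 to 3.74, adjusted p = 0.394) with Opn4-Cre/GFP. The value in Opn4-GFP adults passed with a pseudocount of 4, without TMM scaling, or without cRGC replicate 2. Sarm1, the NAD-cleaving enzyme that executes axon degeneration, stood at 72.1, 24.3, 16.0 and 88.7 CPM in adult Opn4-Cre/GFP ipRGCs and 6.84, 10.5, 15.0 and 16.1 in cRGCs. The log2 fold changes of Sarm1 were -0.06, -0.25 and 1.71 (adjusted p = 0.212, SE 0.71), and the last passed in DESeq2. Nmnat1, the nuclear enzyme, was the least abundant gene per kb at P5 and was at 0.07, 0.63 and -0.64.

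In the AKT and mTOR pathway, which supports survival and axon regrowth, 0 of 6 genes passed. Akt2 (ENSMUSG00000004056, chr7:28376571-28425845), which encodes a survival kinase, stood at 9.77, 4.84 and 5.97 CPM in P5 ipRGCs and 10.6, 11.2 and 5.34 in P5 cRGCs. Among Opn4-GFP adults, Akt2 ran from 0.188 to 31.9 CPM (median 9.87) in ipRGCs and from 2.29 to 51.4 CPM (median 29.2) in cRGCs. In Opn4-Cre/GFP adults it was 20.7, 10.4, 6.17 and 38.6 CPM in ipRGCs against 95.9, 25.6, 36.8 and 55.2 in cRGCs. The groups overlapped in every set, with the ipRGC library lower in 4 of 4 equally numbered pairs of Opn4-Cre/GFP adults. Its log2 fold change was -0.35 (SE 0.43, 95% interval -1.26 to 0.57, adjusted p = 0.871) at P5. In adults, Akt2 was at -1.19 (SE 1.03, 95% interval -3.32 to 0.93, adjusted p = 0.637) with the Opn4-GFP reporter and at -1.57 (SE 0.69, 95% interval -3.03 to -0.11, adjusted p = 0.247) with Opn4-Cre/GFP. Akt1 was at -0.47, 0.96 and 0.65, and Mtor, the kinase at the core of the pathway, at 0.11, 1.01 and 0.34. Rptor, its partner in complex 1, was at 0.13, -0.49 and 0.41. The mTOR inhibitors were close to 0, with Tsc1 at 0.12, -0.32 and -0.24 and Tsc2 at -0.23, -0.22 and -0.16.

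Socs3, Stat3 and Hspb1 belong to cytokine signalling and the heat shock response, and 0 of 3 passed at P5 and in Opn4-GFP adults and 0 of 2 in Opn4-Cre/GFP adults. Socs3 (ENSMUSG00000053113, chr11:117827393-117831361), the feedback inhibitor of JAK and STAT3 whose loss permits optic nerve regrowth, stood at 1.60, 6.46 and 1.47 CPM in P5 ipRGCs and 2.83, 5.26 and 4.27 in P5 cRGCs. Among Opn4-GFP adults, Socs3 ran from 0 to 10.7 CPM (median 0.161) in ipRGCs and from 0.146 to 121 CPM (median 30.4) in cRGCs. With Opn4-Cre/GFP in adults it was 0.0244, 7.90, 1.20 and 0 CPM in ipRGCs against 4.72, 2.19, 31.4 and 31.9 in cRGCs. The higher values were in cRGC libraries in both adult strains, and the ranges overlapped in each. The log2 fold change was -0.47 (SE 0.50, 95% interval -1.54 to 0.60, adjusted p = 0.837) at P5. In adults, Socs3 was at -3.39 (SE 1.13, 95% interval -5.73 to -1.06, adjusted p = 0.087) with the Opn4-GFP reporter and at -2.48 (SE 0.99, 95% interval -4.58 to -0.38, adjusted p = 0.19) with Opn4-Cre/GFP. The value in Opn4-GFP adults passed in DESeq2 and in limma without cRGC replicate 2. Stat3, the transcription factor that SOCS3 restrains, was at -1.84 (adjusted p = 0.246, SE 0.83) in Opn4-GFP adults and -2.01 (adjusted p = 0.234, SE 0.86) in Opn4-Cre/GFP adults, against -0.45 at P5. These are the same cRGC libraries whose Müller glia and vascular marker sums lay above those of every ipRGC library, and the part of those cells in the Socs3 and Stat3 values was not tested. Hspb1, a small heat shock protein, was higher in every P5 cRGC library than in every ipRGC library, as were 8.47% of all genes. Its log2 fold change there was -0.99 (adjusted p = 0.502, SE 0.54) and ran from -1.68 to -0.34 over the alternatives. The P5 median in ipRGCs over that in cRGCs was 0.727, whereas the mean levels were 1.825 CPM per kb in ipRGCs and 5.863 in cRGCs. Most of that gap in means came from the highest cRGC library. In Opn4-GFP adults Hspb1 was at 0.12.

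**Figure D3:**
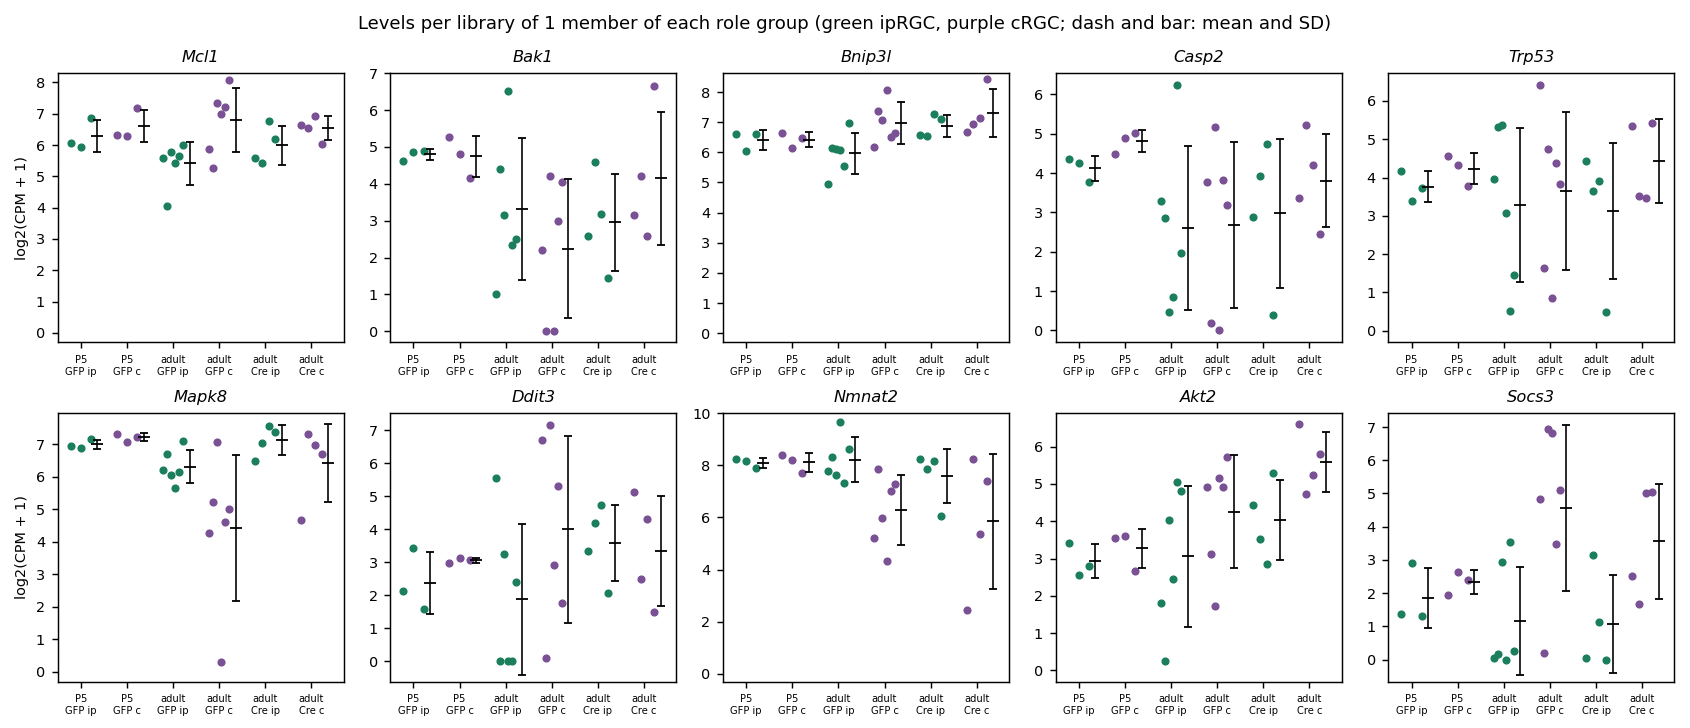
Level of 1 gene of each role group in every library, as log2(CPM + 1) (y axis; 1 point per library, dash and bar for mean and SD; ipRGC green, cRGC purple). P5 libraries lie close together, while adult libraries of 1 group spread over several log2 units for Bak1, Casp2, Trp53, Ddit3 and Socs3.

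Across the 3 sets, 5 of the 35 genes followed throughout had a positive log2 fold change each time (Bcl2l11, Bcl2l2, Bnip3, Mapk9 and Mtor) and 11 a negative one (Akt2, Atf4, Bax, Bcl2, Bnip3l, Casp2, Mcl1, Socs3, Stat3, Trp53 and Tsc2). Pro-survival and pro-death genes stood among the first, BCL-W with BIM. Under the alternatives only Mapk9, Akt2, Mcl1, Socs3 and Stat3 of all these genes kept their sign in each of the 3 sets. The sign of Casp2 in Opn4-GFP adults changed in 10 of 20 alternatives. That of Bax in adults depended on single libraries. Bax turned to 0.95 in Opn4-GFP adults without cRGC replicate 2, the library at 795 CPM, and to 0.49 in Opn4-Cre/GFP adults without ipRGC replicate 1. The adult strains, which share no libraries, had the same sign for 25 of the 35. Over all 11150 genes listed in the 3 sets, 22% were positive and 17.3% negative throughout and 66.5% had the same sign in both adult strains, against 14.3%, 31.4% and 71.4% of the 35. Groups of libraries did not overlap for 5 of 38 genes at P5 (3 upward and 2 downward, as 8.85% and 8.47% of all genes did), for 0 of 36 in Opn4-GFP adults (where 1.4% and 2.46% of all genes separated upward and downward) and for 1 of 36 in Opn4-Cre/GFP adults (5.49% and 6.36%).

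The genes spanned a wide range of levels. Per kb of exon at P5, Atf4 averaged 64.9 CPM per kb in ipRGCs and Nmnat2 60.2, followed by Mapk9 at 52.8, Mapk10 at 27.0, Mcl1 at 23.2 and Bnip3l at 22.2. At the low end were Bcl2, Socs3, Akt2 and Nmnat1. Of the 37 pairs of neighbours in this order, 33 differed by less than their pooled SD over replicates, and the steps beyond it were Nmnat2 over Mapk9, Mapk9 over Mapk10, Tsc2 over Bak1 and Casp2 over Hspb1. In the other 5 groups 0 to 3 steps were beyond the pooled SD. Mean levels of the listed genes ran from 1.88 to 358 CPM in P5 ipRGCs with a median of 41.4, above the 16.5 of all listed genes, and 31 of 38 were at 10 CPM or more, against 61.3% of all genes.

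**Figure D4:**
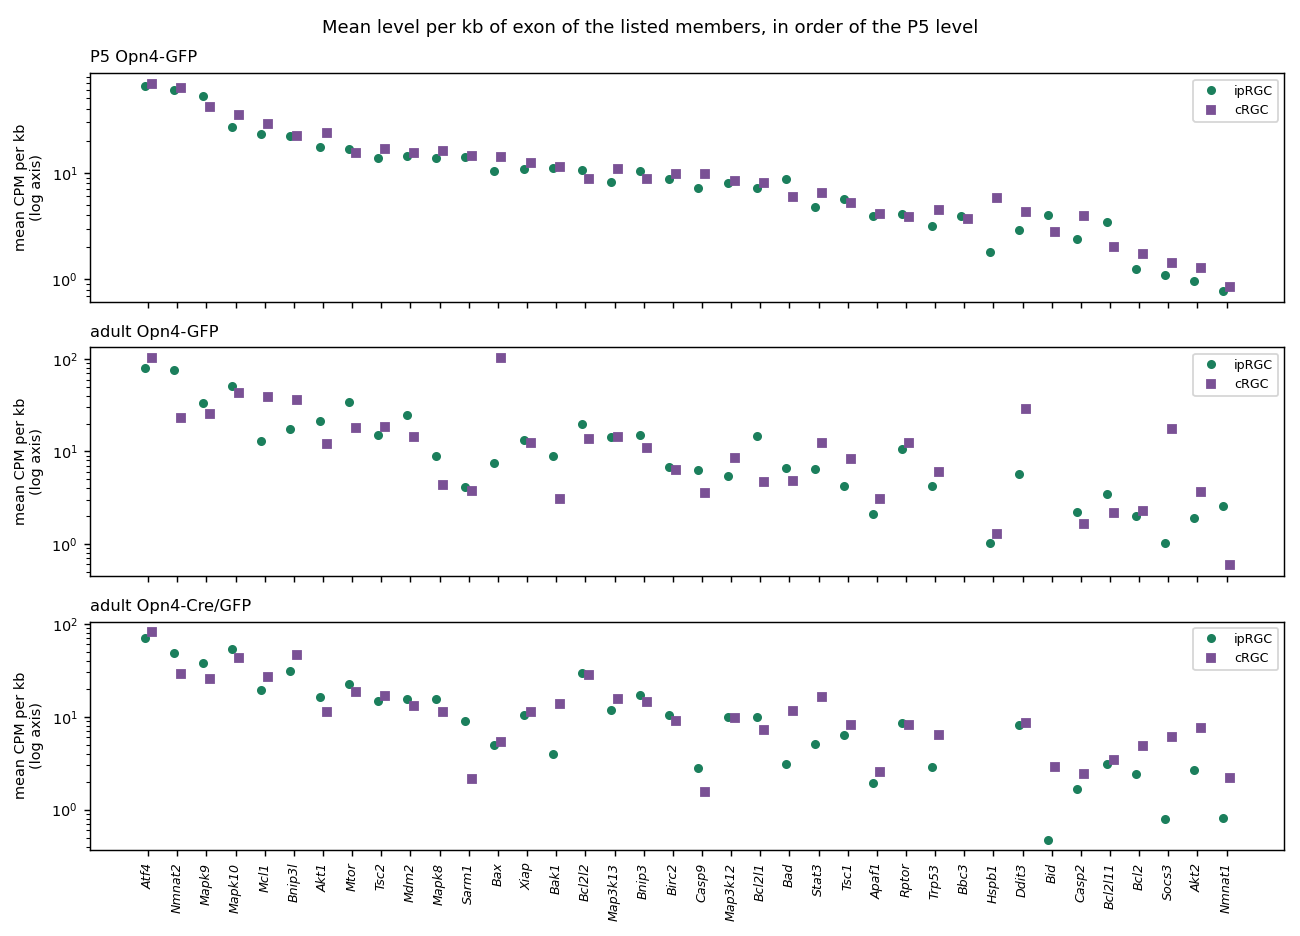
Mean level per kb of exon of each listed gene (y axis, log scale) in ipRGC (circles) and cRGC (squares) libraries of the 3 sets, in order of the P5 level. At P5 the circle and the square lie close for most genes, from Atf4 and Nmnat2 at the top to Nmnat1 at the bottom. They part for some, such as Hspb1 (1.825 CPM per kb in ipRGCs, 5.863 in cRGCs), and more so in adults. For Hspb1 the P5 medians lay closer (ipRGC over cRGC 0.727), and most of the gap came from the highest cRGC library.

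The comparison of ages in Opn4-GFP mice used recovered reads with 1 joint scaling, since the P5 and adult values had been scaled separately. In ipRGCs, 0 of 36 genes passed between P5 and adult (0.837% of all genes were called higher and 0.303% lower in adults), and in cRGCs 0 of 36 passed (3.32% and 2.88%). At an unadjusted p below 0.05 there were 1 and 7 of the 36, beside 8.47% and 18.5% of all genes. edgeR and DESeq2 called 0 in both, with 0 and 3, and 1 and 4, at an unadjusted p below 0.05. Of all genes, edgeR called 0.748% in ipRGCs and 3.68% in cRGCs, and DESeq2 2.8% and 9.63%. The median log2 difference of the genes was -0.34 in ipRGCs and -0.30 in cRGCs, beside -0.24 and -0.34 over all genes. Mapk8 had the smallest adjusted p, at -2.68 (adjusted p = 0.0697, SE 0.87) in cRGCs against -0.55 in ipRGCs, and Nmnat2 followed at -1.73 (adjusted p = 0.104, SE 0.62) against 0.27. The Mapk8 value in cRGCs passed with a pseudocount of 4 and without adult cRGC replicate 3 or 4, and the Nmnat2 value without adult cRGC replicate 2. Sarm1 had log2 differences of -2.95 (adjusted p = 0.484, SE 1.29) in ipRGCs and -2.78 (adjusted p = 0.243, SE 1.29) in cRGCs, neither of which passed. Pan-RGC marker sums in cRGC libraries were 10036 to 11562 CPM at P5 and 763 to 2627 CPM in adults, and their part in the cRGC values was not tested.

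Tested directly, the difference between the ages in the ipRGC over cRGC ratio passed for 0 of 36 genes (0.125% of all genes upward and 0.667% downward). At an unadjusted p below 0.05 there was 1, Nmnat2 at 2.0 (adjusted p = 0.701, SE 0.87), beside 6.09% of all genes, and edgeR and DESeq2 called 0, with 0 and 0 at an unadjusted p below 0.05. Of all genes, edgeR called 0.294% and DESeq2 1.36%. Between the adult strains, whose reporters label different sets of ipRGC types, 0 of 35 genes passed in ipRGCs (0% of all genes in either direction), and 0 of 35 differed between the strains in their ipRGC over cRGC ratio (0% and 0%). No gene of the 35 reached an unadjusted p below 0.05 in either strain comparison with limma, edgeR or DESeq2, whereas 2.25% and 2.38% of all genes did with limma.

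Other genes of the same pathways were taken from lists chosen by function. Of the further genes of the DLK and JNK pathway, 1 of 14 passed at P5, 1 of 15 in Opn4-GFP adults and 1 of 15 in Opn4-Cre/GFP adults, and each time it was Jun, the transcription factor that the Jun N-terminal kinases activate, called lower in ipRGCs as were 2.27%, 3.39% and 3.47% of all genes. The paper itself proposes from these libraries that Jun is repressed in P5 ipRGCs, so its P5 call is not independent evidence. Jun stood at 19.6, 39.6 and 22.1 CPM in P5 ipRGCs and 56.2, 122 and 92.9 in P5 cRGCs. Among Opn4-GFP adults, Jun ran from 2.74 to 43.5 CPM (median 8.80) in ipRGCs and from 148 to 409.8 CPM (median 227) in cRGCs. In Opn4-Cre/GFP adults it was 21.6, 50.6, 37.1 and 52.2 CPM in ipRGCs against 209, 157, 189.6 and 62.2 in cRGCs. No ipRGC library reached the lowest cRGC library in any of the 3 sets. The log2 fold change of Jun was -1.70 (adjusted p = 0.00446, SE 0.32) at P5, -4.45 (adjusted p = 0.000155, SE 0.70) in Opn4-GFP adults and -1.85 (adjusted p = 0.0483, SE 0.51) in Opn4-Cre/GFP adults. The last call ended in 11 of 16 alternatives, among them edgeR, the replicate block and the omission of any ipRGC library or of cRGC replicate 1, 2 or 3. At P5 the Müller glia marker sum was 470 to 527 CPM in the cRGC libraries and 528 to 756 CPM in the ipRGC libraries, while amacrine and astrocyte markers were higher in the cRGC libraries, and without cRGC replicate 3, the library with the high vascular sum, the Jun call at P5 held, as it did under each of its 13 alternatives (limma, edgeR or DESeq2 adjusted p up to 0.0289). The part of the other cells in the Jun values was not tested.

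Trophic receptors, through which ganglion cells receive survival signals, passed in both directions. At P5, 2 of 12 were higher in ipRGCs, beside 1.93% of all genes. Lifr, the LIF receptor, averaged 119 ± 8.37 CPM (SD, n = 3) in ipRGCs and 27.8 ± 1.45 CPM (SD, n = 3) in cRGCs with a log2 fold change of 2.06 (adjusted p = 3.23e-05, SE 0.23), and Ngfr, the p75 neurotrophin receptor, was at 1.52 (adjusted p = 0.00632, SE 0.31). In Opn4-GFP adults 3 of 13 were lower in ipRGCs (3.39% of all genes), namely Ngfr at -3.81 (adjusted p = 0.00324, SE 0.79), Fgfr1 at -3.71 (adjusted p = 0.0135, SE 0.91) and Il6st, which encodes the shared cytokine receptor gp130, at -3.17 (adjusted p = 0.0208, SE 0.82). In Opn4-Cre/GFP adults 3 of 13 were lower (3.47%), Ngfr at -3.22 (adjusted p = 0.00392, SE 0.59), Cntfr, the CNTF receptor, at -2.41 (adjusted p = 0.028, SE 0.60) and Il6st at -1.77 (adjusted p = 0.0438, SE 0.48). Ngfr thus stood higher in ipRGCs at P5 and lower in adults of both strains. At P5 it ran from 59.0 to 102 CPM (median 65.8) in ipRGCs and from 19.0 to 37.2 CPM (median 22) in cRGCs. Among Opn4-GFP adults, Ngfr ran from 0.401 to 31.0 CPM (median 12.2) in ipRGCs and from 62.1 to 529 CPM (median 134) in cRGCs, without overlap at either age. Its difference between the ages was itself called, at -5.29 (adjusted p = 0.0313, SE 1.20), though it ended in 11 of 26 alternatives, among them the omission of any P5 library or of adult cRGC replicate 1 or 5. The Ngfr call in Opn4-GFP adults ended without the adult libraries of 1 sequencing run (adjusted p = 0.0562). The Fgfr1 call ended in edgeR, in DESeq2 and without those libraries, and the Il6st call of Opn4-Cre/GFP adults in 9 of 16 alternatives, among them the omission of any ipRGC library or of cRGC replicate 1, 2 or 3. The Il6st call of Opn4-GFP adults ended in edgeR, without the libraries of 1 run and without cRGC replicate 3. That of Cntfr ended in edgeR and without ipRGC replicate 2 or 3 or cRGC replicate 1 or 3. Adult cRGC libraries had the higher Müller glia and vascular marker sums and the lower pan-RGC sums in both strains, while P5 pan-RGC sums overlapped. The part of other cells in the receptor values, and in the age difference of Ngfr, was not tested.

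Growth and regeneration genes passed only upward in ipRGCs among the cell type comparisons, at 0 of 18 at P5, 1 of 14 in Opn4-GFP adults and 3 of 16 in Opn4-Cre/GFP adults, beside 1.93%, 1.76% and 1.97% of all genes. Stmn2, a tubulin regulator of growth cones that is also on the pan-RGC marker list, was at 2.68 (adjusted p = 0.000844, SE 0.49) and 2.11 (adjusted p = 0.00612, SE 0.41) in the adult strains. Gap43, a growth cone protein, was at 2.31 (adjusted p = 0.00627, SE 0.46) and Klf7, a transcription factor that promotes axon growth, at 2.82 (adjusted p = 0.000876, SE 0.42) in Opn4-Cre/GFP adults. Pan-RGC marker sums, which include Stmn2, were also higher in adult ipRGC libraries. They were at 4861 to 10663 against 763 to 2627 CPM with Opn4-GFP and at 5997 to 8543 against 1107 to 3333 CPM with Opn4-Cre/GFP. Their part in these calls was not tested. With age, 1 of 14 rose and 1 fell in ipRGCs (0.837% and 0.303% of all genes) and 5 of 14 fell in cRGCs (2.88% of all genes). Dcx, a microtubule protein of young neurons, fell by 4.87 on the log2 scale in ipRGCs and by 8.28 in cRGCs, and Stmn2, Crmp1 and Klf7 were lower in adult cRGCs, with log2 differences of -4.02, -3.19 and -3.21. Klf9, a transcription factor that restrains axon growth, rose in adult ipRGCs, at 2.78 (adjusted p = 0.0476, SE 0.70), a call that ended in 18 of 25 alternatives. The pan-RGC marker sums of these cRGC groups (10036 to 11562 CPM at P5, 763 to 2627 CPM in adults) moved with these genes, and their part was not tested. The age calls of Crmp1, Klf7 and Gap43 in cRGCs ended in edgeR, that of Crmp1 also in DESeq2, and those of Crmp1 and Gap43 also without the adult libraries of 1 run. The Crmp1 call also ended without P5 cRGC replicate 2, the Klf7 call without P5 cRGC replicate 1, and the Gap43 call without any 1 of the P5 cRGC libraries.

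The further apoptosis genes passed in 0 of 19, 0 of 14 and 0 of 18 tests at P5, in Opn4-GFP adults and in Opn4-Cre/GFP adults, with 0, 3 and 2 at an unadjusted p below 0.05, 0 in edgeR and 0, 2 and 1 in DESeq2. The further stress response genes passed in 0 of 14, 0 of 13 and 0 of 14, with 1, 0 and 3 at an unadjusted p below 0.05, 0 in edgeR and 0, 0 and 1 in DESeq2. Of all genes, 13.3%, 17% and 17.3% had an unadjusted p below 0.05 in limma. The shares of all genes that passed were 3.88%, 2.62% and 3.22% in edgeR and 5.29%, 7.12% and 8.59% in DESeq2. With age, 0 of 14 DLK and JNK pathway genes passed in ipRGCs or cRGCs (3 and 4 at an unadjusted p below 0.05, 0 and 0 called in edgeR, 1 and 2 in DESeq2) and 0 of 13 stress response genes (1 and 1, 0 called by either tool). For age, edgeR called 0.748% and 3.68% of all genes in ipRGCs and cRGCs, and DESeq2 2.8% and 9.63%. Trophic receptors passed upward with age in cRGCs for 2 of 12 (3.32% of all genes), Fgfr1 at 3.76 (adjusted p = 0.0286, SE 1.05) and Igf1r at 2.01 (adjusted p = 0.045, SE 0.60). The first call ended in 5 of 25 alternatives and the second in 12, in both the omission of any P5 cRGC library among them. The part of other cells in these cRGC values was not tested.

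Survival factors that the study itself named from these libraries, Igf1, Adcyap1 and Spp1, are not independent evidence of a direction. Both listed at P5 and the 3 listed in each adult strain were higher in ipRGCs, as were 1.93%, 1.76% and 1.97% of all genes. Igf1, a growth factor that promotes ganglion cell survival and regrowth, had log2 fold changes of 2.89 (adjusted p = 8.6e-07, SE 0.22) at P5, 4.33 (adjusted p = 0.00042, SE 0.74) in Opn4-GFP adults and 4.39 (adjusted p = 0.000314, SE 0.58) in Opn4-Cre/GFP adults. Adcyap1, which encodes the neuropeptide PACAP and is also on the ipRGC marker list, had 1.13 (adjusted p = 0.0153, SE 0.26), 6.48 (adjusted p = 6.26e-06, SE 0.79) and 5.85 (adjusted p = 0.000102, SE 0.66), and its call at P5 ended without ipRGC replicate 1 or 3 or cRGC replicate 1. Spp1, which encodes osteopontin, ran from 16.0 to 77.2 CPM (median 45.3) in adult Opn4-GFP ipRGCs and from 0 to 0.219 CPM (median 0.0310) in cRGCs, where 3 of the 6 libraries were at 0. With Opn4-Cre/GFP in adults it ran from 19.1 to 44.0 CPM (median 35.2) in ipRGCs and from 0 to 6.96 CPM (median 0.0526) in cRGCs, and its call there ended in edgeR (adjusted p = 0.269). With age both of the genes listed at P5 were lower in adult cRGCs (Igf1 -3.58, Adcyap1 -3.96), as were 2.88% of all genes, and the difference between the ages was called for Adcyap1 at 5.41 (adjusted p = 0.00583, SE 0.98).

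**Figure D5:**
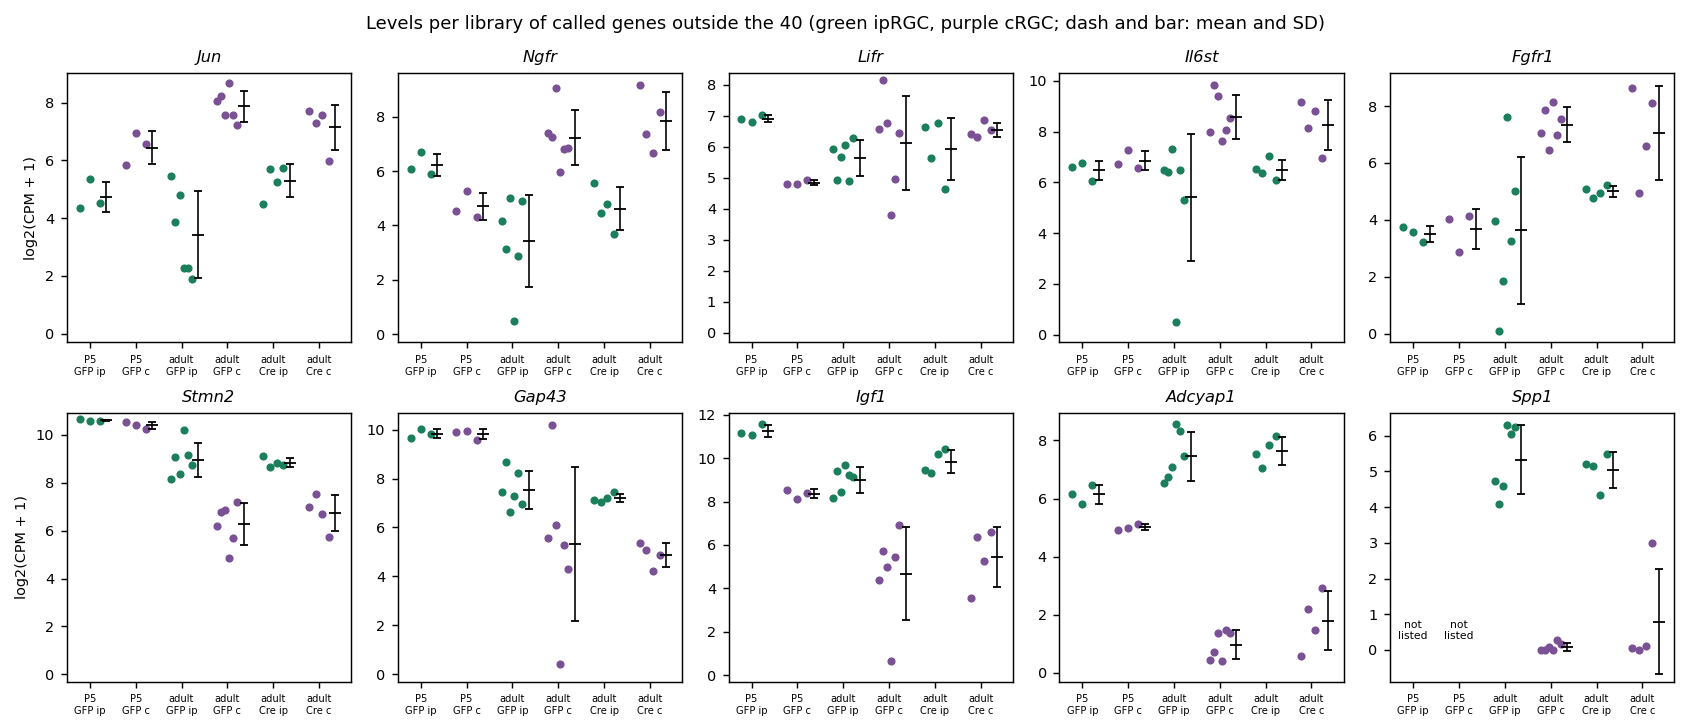
Level in every library of 10 genes of the pathway lists that passed in at least 1 comparison, as log2(CPM + 1) (y axis; 1 point per library, dash and bar for mean and SD; ipRGC green, cRGC purple). Jun is lower in every ipRGC library than in every cRGC library of its set, and Ngfr changes sides between P5 and adults.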

How the data were processed

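RNA of sorted ganglion cell pools was amplified, sequenced as 50-base single-end reads and processed by the authors: fastx_clipper and fastq_quality_filter, TopHat2 to mm9, htseq-count per gene and edgeR scaling, with genes under 1 CPM in most samples of a comparison removed and repeat runs of a library merged (no source used here gives their versions). The deposited signal values are counts per gene relative to TMM-scaled library sizes (CPM), separate for each age and strain. Deposited read counts per library after the quality filter were used only to describe depth. Columns of the authors' own fold changes and p-values were not used. Columns of samples not mapped to a label numbered 0.

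From the deposited values, 100.0% came out as whole reads (tolerance 0.01), and these recovered reads fed the age and strain comparisons, with 1 joint TMM scaling, and the count tests. The main test was limma 3.58.1 with a mean trend on log2(CPM + 1) in R 4.3.3, with Benjamini-Hochberg adjustment over all listed genes. Called genes had an adjusted p below 0.05 and a change of over 1 log2 unit either way. Changes on this scale understate those of low genes. edgeR 4.0.16 and DESeq2 1.42.0 were alternatives, beside other pseudocounts, filters, fold limits, no TMM scaling, left-out libraries and the replicate number as a block. Listed reads ran from 5467809 to 12895222 per library at P5, 3927386 to 35090060 in adult Opn4-GFP and 6899510 to 44871619 in adult Opn4-Cre/GFP, and p-values measure the spread between pools. Samples were grouped by their labels. The tests were also run on simulated counts with known changes, with an outcome not reported here. Those counts held no shared pools and no differences in cell mix, so they do not show how the tests behave on these pools.

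Per-library values are given for 1 gene of each role group, the one with the smallest unadjusted p over the ipRGC and cRGC comparisons where none was called, and for at most 4 called genes of each pathway list and comparison, by adjusted p; Bax, Mapk9 and Sarm1 were added after their values were seen. Age results of the further apoptosis genes are not reported here. The 40 genes and the pathway lists were chosen with earlier results of these data known. The methods describe ipRGC and cRGC pools of 1 number as split from 1 pool, and the labels give numbers only. Deviations of equally numbered libraries from their group means correlated at 0.135 to 0.324 at P5 (above 0.1 in 3 of 3 pairs), at 0.0162 to 0.125 in adult Opn4-GFP (2 of 6) and at 0.052 to 0.268 in adult Opn4-Cre/GFP (1 of 4). Libraries that correlated best with their own number in the other pool were 6 of 6 at P5, 7 of 12 in adult Opn4-GFP and 8 of 8 in adult Opn4-Cre/GFP. The replicate block thus bears on adult Opn4-Cre/GFP as well as on P5, and the main fit left the pairing out.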

Additional observations from a re-analysis of the deposited data

Results flagged for a closer look

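Among Jun and the 10 genes given library by library, 9 of 44 adult groups of libraries held 1 library far from the rest by Dixon's criterion. Its rate of about 1 in 20 groups holds for normally distributed values. The criterion was applied to CPM without a log scale, where that rate was not checked, so 9 of 44 cannot be read as an excess. In adult Opn4-GFP ipRGCs, Bak1 stood at 91.0 CPM in replicate 4 (next 20.2 CPM), Casp2 at 73.8 CPM in replicate 5 (next 8.83), Ddit3 at 46.2 CPM in replicate 1 (next 8.56) and Nmnat2 at 809 CPM in replicate 4 (next 391). In adult Opn4-GFP cRGCs, Trp53 stood at 85.0 CPM in replicate 1 (next 25.8) and Mapk8 at 133 CPM in replicate 3 (next 36.2). In adult Opn4-Cre/GFP cRGCs, replicate 4 was far above the rest for Bak1 (100.6 CPM, next 17.5) and Bnip3l (348.5 CPM, next 140.2), and in the ipRGCs of that strain Socs3 stood at 7.90 CPM in replicate 2 (next 1.20).

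The difference between the ages in the ipRGC over cRGC ratio passed the limma test of the interaction for Ngfr, at -5.29 on the log2 scale, and for Adcyap1, at 5.41. Ngfr was higher in ipRGCs in 3 of 3 equally numbered pairs at P5 and lower in 6 of 6 in adult Opn4-GFP, and Adcyap1 was higher in 3 of 3 and 6 of 6.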

How the results depend on the processing

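The count of called genes among the 40 was 0 in all 8 comparisons and stayed 0 under 179 of 188 alternative counts. It became 1 in adult Opn4-GFP with a pseudocount of 4 (Nmnat2), without TMM scaling (Nmnat2) and in DESeq2 (Socs3), and ran from 0 to 2 when each library was left out in turn (Socs3 and Nmnat2 without cRGC replicate 2). It became 1 in adult Opn4-Cre/GFP in DESeq2 (Sarm1). For the age comparison in cRGCs it became 1 with a pseudocount of 4 (Mapk8) and ran from 0 to 1 over left-out libraries (Mapk8 without adult cRGC replicate 3 or 4, Nmnat2 without replicate 2). In the other comparisons left-out libraries gave 0 to 0. With the replicate number as a block the count stayed 0 in each of the 5 comparisons where the block could be fitted, with 6, 8, 4, 0 and 0 genes of the 40 at an unadjusted p below 0.05 (P5, adult Opn4-GFP, adult Opn4-Cre/GFP, age by cell type and strain by cell type), and of the pathway calls in those 5 comparisons it ended only that of Jun in adult Opn4-Cre/GFP. None of the 288 tested pairs of gene and comparison turned past the threshold in the other direction, 152 kept their sign under every alternative, and 21 of the 38 pathway calls were kept under every alternative. Over all genes the calls moved by more than 1.5 times in adult Opn4-GFP (597, against 304 in edgeR and 201 without the libraries of 1 run), in adult Opn4-Cre/GFP (727, against 430 in edgeR and 1147 in DESeq2), for age in ipRGCs (128, against 84, 315 and, without the libraries of 1 run, 85), for age in cRGCs (697, against 414 and 1082), for age by cell type (89, against 33, 153 and 28) and in the strain comparisons (0, against 10 and 6 in DESeq2). Left-out libraries moved the count over all genes by more than 1.5 times to between 419 and 892 in adult Opn4-Cre/GFP (without ipRGC replicate 1, 2 or 3), 34 and 207 for age in ipRGCs (without any P5 ipRGC library or adult cRGC replicate 4), 361 and 834 for age in cRGCs (without any P5 cRGC library) and 27 and 126 for age by cell type (without any P5 library or adult cRGC replicate 5). The share of calls that were higher moved from 53.5% to 66.4% in edgeR and 76.3% in DESeq2 for age in cRGCs, from 73.4% to 83.8% in DESeq2 for age in ipRGCs, and from 15.7% to 32.4% without TMM scaling for age by cell type. The median of all genes shifted by 0.65 and 0.67 on the log2 scale for age in cRGCs and by 0.45 and 0.42 for age in ipRGCs in edgeR and DESeq2, and by 0.30 or less elsewhere. The cause of these changes was not tested. Adult genes at 0 to 3 reads in a library, Hspb1, Socs3 and Ddit3 among them, are limited by depth.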
